A study of Mus musculus with 6 samples.

Results

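Chromatin accessibility was examined at 10 genes that carry fatty acids into the muscle fibre and store or release them. They are Cd36, Lpl, Fabp3, Slc27a1, Acsl1, Plin2, Plin5, Pnpla2, Dgat1 and Dgat2. They were chosen by gene symbol from a table of 49366 windows, and all 10 had exactly 1 row. A window was taken to reach 1 kb upstream and downstream of all starts annotated for the gene. Window bounds, lengths and shared bases were rebuilt here from the gene annotation. Nuclei were taken from the gastrocnemius and tibialis anterior muscles of male C57BL/6J mice, 8 weeks old at treatment and sampled 28 days later. One group had received the AAV6 vector Yap-shRNA, a hairpin against Yap, the coactivator that works through TEAD factors. The other had received LacZ-shRNA, a hairpin against a bacterial gene, in the muscles of the opposite limb, so that both groups carried a vector and a hairpin. Each of the 3 replicates per group pooled 4 muscles of each kind, and nuclei were sorted for PCM1, a protein at the surface of muscle fibre nuclei. Open chromatin was tagged by a transposase and sequenced (ATAC-seq). The comparison asks whether loss of Yap alters access to these genes.

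Muscle fibres burn fatty acids that arrive in the blood as triglyceride or bound to albumin. Lipoprotein lipase frees them in the capillary, CD36 and FATP1 (Slc27a1) help them across the membrane, FABP3 binds them in the cytosol and ACSL1 couples them to coenzyme A. Those not burned are joined to glycerol, in a last step run by DGAT1 and DGAT2, and kept in droplets coated by perilipins, from which ATGL (Pnpla2) releases them again.

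Depth differed between libraries. Window counts totalled 3326803 to 8964441 reads in LacZ-shRNA and 8622014 to 10319467 in Yap-shRNA, and LacZ-shRNA replicates 1 and 2 were the shallowest. LacZ-shRNA replicate 1 was also the lowest of the 6 libraries at 5 of the 10 lipid genes. The share of all windows at which it was the lowest was not taken, so this is not read as a trait of these genes. The window of Yap1, the targeted gene, held 14.3 ± 2.28 CPM (read counts scaled by library size, mean ± SD, n = 3) in LacZ-shRNA and 14.4 ± 2.22 in Yap-shRNA, but a hairpin acts on RNA and 2 other genes have windows there, so this does not measure the knockdown. The 10 muscle fibre marker windows had mean levels from 9.64 to 488 CPM, Ttn being the highest. Myh1 and Myh2 were as low as windows of other cell types. The Myh1 window shares bases with the window of another gene, and the Myh2 window does not. The 8 adipocyte marker windows had means of 7.88 to 46.0 CPM. None of the measured markers of adipocytes, endothelial cells, fibroblasts, leukocytes or satellite cells was at 0.

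The promoters of 7 of the 10 genes matched the RefSeq promoter table (GRCm38.p6), which gave 11 promoters, and none was matched for Lpl, Dgat1 and Dgat2. The 250 bases before the start are printed for 4 of them, 5′ to 3′ on the strand of the gene, because they hold letters that receptors of fatty acid metabolism and general promoter factors are known to read. Capitals mark AGGTCA or its reverse complement TGACCT (the core letters of nuclear receptor sites such as those of the PPARs), GGGCGG (SP1) and TGANTCA (AP-1).
Cd36, chr5:17835897-17836146, minus strand: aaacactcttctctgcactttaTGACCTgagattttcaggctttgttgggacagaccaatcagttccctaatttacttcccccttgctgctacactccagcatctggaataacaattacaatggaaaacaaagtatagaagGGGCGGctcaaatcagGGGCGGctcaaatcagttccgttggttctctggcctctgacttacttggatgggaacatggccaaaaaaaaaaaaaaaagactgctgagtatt
Plin2, chr4:86670060-86670309, minus strand: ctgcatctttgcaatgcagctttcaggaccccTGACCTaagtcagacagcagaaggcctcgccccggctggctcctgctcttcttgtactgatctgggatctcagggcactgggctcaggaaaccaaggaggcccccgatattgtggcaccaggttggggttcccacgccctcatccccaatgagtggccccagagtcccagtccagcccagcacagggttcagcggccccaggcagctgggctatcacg
Plin5, chr17:56117549-56117798, minus strand: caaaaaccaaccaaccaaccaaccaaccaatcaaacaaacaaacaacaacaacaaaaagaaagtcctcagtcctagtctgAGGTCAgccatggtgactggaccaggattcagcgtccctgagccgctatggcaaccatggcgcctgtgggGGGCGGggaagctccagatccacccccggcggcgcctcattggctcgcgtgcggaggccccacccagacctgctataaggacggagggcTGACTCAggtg
Acsl1, chr8:46470787-46471036, plus strand: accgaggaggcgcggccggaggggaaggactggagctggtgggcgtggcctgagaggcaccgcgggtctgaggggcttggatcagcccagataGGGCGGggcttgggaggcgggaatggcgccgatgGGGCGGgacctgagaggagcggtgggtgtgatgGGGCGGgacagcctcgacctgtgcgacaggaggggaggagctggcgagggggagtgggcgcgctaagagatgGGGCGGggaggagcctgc

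The 4 promoters differ in base composition. Over 300 bases (250 before to 50 after the start), the Cd36 promoter was 43.0% G and C, a value above only 16.5% of 32851 RefSeq promoters, whereas the Acsl1 promoter was 74.0% G and C. The Acsl1 stretch above holds 4 matches to GGGCGG and no nuclear receptor match. Searched on both strands over the 300 bases, AGGTCA was in 4 of the 11 promoters, those of Cd36, Plin2 and Plin5, against 16.3% of all RefSeq promoters. GGGCGG was in 8 of the 11, against 35.7% of all. Some genes have several promoters and those of Plin5 overlap, so the 11 are not independent. By gene, AGGTCA was in promoters of 3 and GGGCGG in promoters of 6. The exact direct repeat that PPAR and RXR read together is 2 copies of AGGTCA 1 base apart. It was in none of the 11 and in 0.0396% of all.

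ACATTCC, the letters read by the TEAD partners of Yap, was in none of the 11 promoters on either strand, against 3.85% of all, and in the central 300 bases of none of the 59 peaks linked to the genes, against 2.17% of all peaks. A search of whole promoter peaks, added after these results were seen, gave 5 matches in 13 peaks. The peaks that held one were 1158 to 3314 bases wide, and 8.75% to 26.7% of all peaks within 10% of their widths hold the same letters. These matches are shown on the plus strand with the letters in capitals, since they are the places in the promoter peaks of these genes that spell ACATTCC exactly. Shorter or variant forms of the TEAD sequence were not searched.
Fabp3 upstream peak, chr4:130306739-130306767: tctccagcactACATTCCacactccatgt
Fabp3 start peak, chr4:130307952-130307980: gcaggcgggagACATTCCgcagggagggg
Slc27a1 first peak, chr8:71569953-71569981: cggatgggggcGGAATGTtgggactgctg
Acsl1 first peak, chr8:46470533-46470561: gggcacctgcaACATTCCatagcatcaca
Pnpla2 peak, chr7:141457152-141457180: tcacagtcaatGGAATGTcatccatctga
Measured from the nearest annotated start, the matches lie at -1842 and -629 bp for Fabp3, -205 bp for Slc27a1, -490 bp for Acsl1 and 148 bp for Pnpla2. None of the 5 peaks passed the threshold of the comparison described below.

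Windows differ in length, so levels were compared as CPM per kb of window. Pnpla2, the first lipase of the droplet, had the highest window level of the 10, 24.4 ± 4.40 CPM per kb in LacZ-shRNA and 23.5 ± 0.941 in Yap-shRNA. Slc27a1 (18.0 ± 2.43 and 15.5 ± 0.773), Plin5 (15.9 ± 3.31 and 15.7 ± 2.45), Dgat1 (13.7 ± 1.41 and 15.2 ± 0.837), Acsl1 (14.1 ± 1.86 and 14.7 ± 1.05) and Dgat2 (12.3 ± 2.80 and 11.9 ± 0.421) followed. Over the 6 libraries each of these overlapped its neighbours among them, and the order from Slc27a1 to Dgat2 is within the spread. Pnpla2 was above Slc27a1 in each library, although their ranges overlapped. The lowest Pnpla2 library (19.6 CPM per kb) was above the highest of Plin5 (18.5), Dgat1 (16.0), Acsl1 (15.8) and Dgat2 (15.1). The lowest Dgat2 library (9.52 CPM per kb) was above the highest Lpl library (9.11). Lpl (8.20 ± 0.715 and 8.74 ± 0.360), Plin2 (6.98 ± 0.451 and 7.18 ± 0.320) and Cd36 (4.17 ± 0.458 and 3.83 ± 0.232) came next, and no library of one reached the range of its neighbour. Among 14638 windows of protein-coding genes that share no bases with another window, Pnpla2 stood above 98.4% and Cd36 above 22.1%. The rank of Pnpla2 depends on the division by window length. In mean CPM per window, Acsl1 (141 in LacZ-shRNA and 147 in Yap-shRNA), Slc27a1 (128 and 110) and Dgat1 (106 and 117) were above Pnpla2 (93.2 and 89.8). Per kb of the largest promoter peak, the highest means over the 6 libraries were Acsl1 at 55.9 CPM, Plin5 at 37.2 and Pnpla2 at 36.3.

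**Figure D1:**
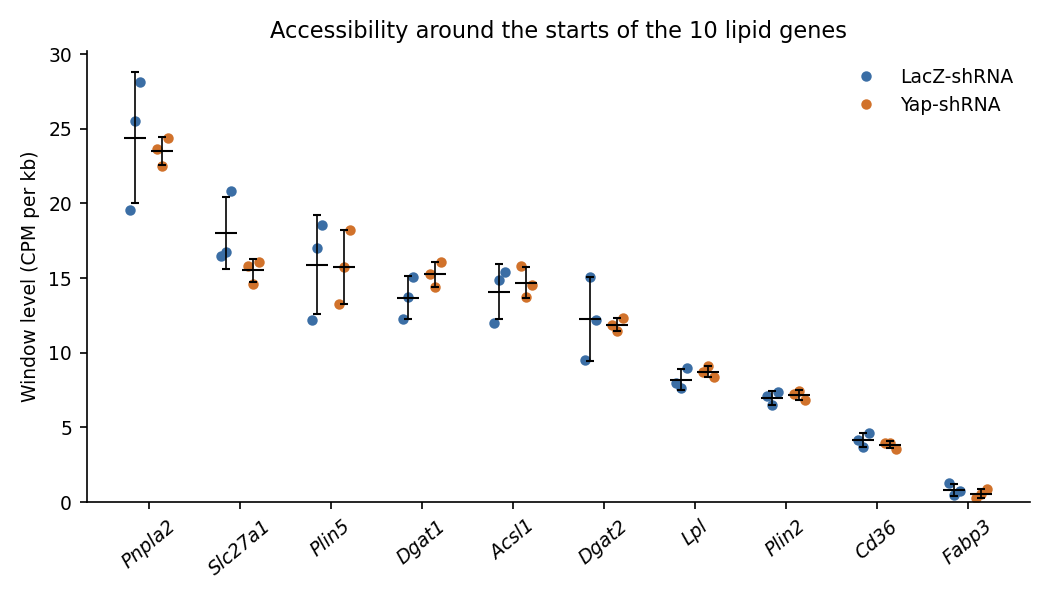
Window level (CPM per kb of window) of the 10 lipid genes in each library, with LacZ-shRNA in blue and Yap-shRNA in orange; bars give the mean and SD of 3 replicates. Genes are in order of mean level, from Pnpla2 to Fabp3, and the groups overlap at every gene except Slc27a1.

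The lowest window was that of Fabp3, the cytosolic fatty acid carrier of muscle and heart. It held 14, 3 and 13 reads in the LacZ-shRNA replicates and 6, 11 and 15 in the Yap-shRNA replicates. A called peak nevertheless lies over the Fabp3 start (chr4:130307765-130309764), with 47.9, 50.1 and 58.2 CPM in LacZ-shRNA and 57.3, 55.3 and 50.1 CPM in Yap-shRNA. The window thus held 2.24% of the reads in the promoter peaks of the gene, which total 2767, whereas the windows of the 8 other genes with a promoter peak held 106% to 201%. The start of Gm10570, annotated as protein coding on the opposite strand, lies 79 bp from the Fabp3 start, and 1922 of the 2001 bases of the Fabp3 window (96.1%) also belong to the Gm10570 window. None of the other 9 windows shared bases with another gene. Whether reads in the shared bases were left out of both genes was not tested. The peak is taken here as the measure of Fabp3, but it also covers the Gm10570 start. Its signal therefore cannot be assigned to Fabp3 alone.

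**Figure D2:**
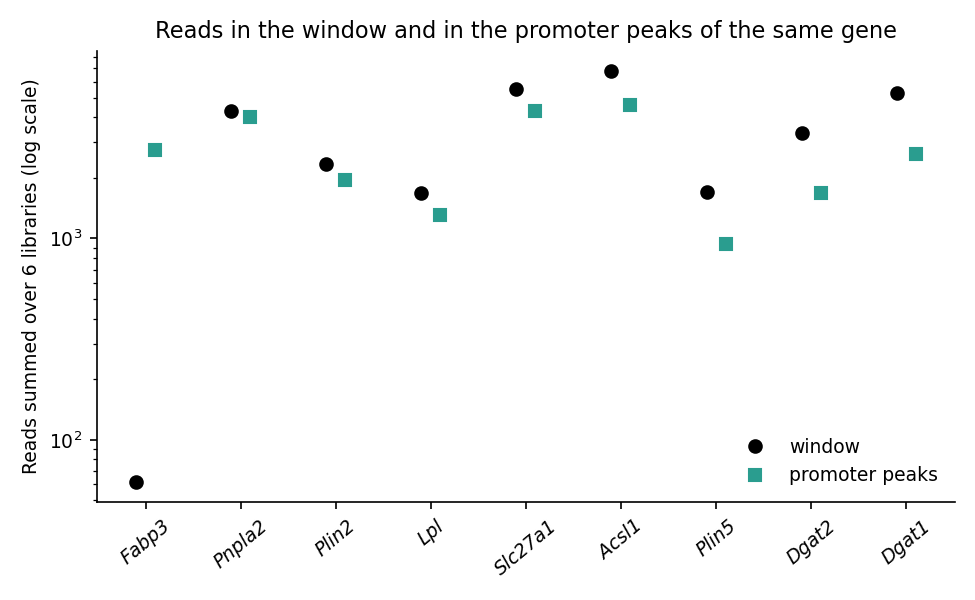
Reads summed over 6 libraries (log scale) in the window (circles) and in the promoter peaks (squares) of the 9 genes that have a promoter peak. The Fabp3 window holds 62 reads against 2767 in its peaks, and at the other 8 genes the window holds at least as many reads as the peaks.

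Cd36, the main fatty acid translocase of the fibre membrane, had no promoter peak. Its window held 1152 reads over the 6 libraries, a mean of 4.00 CPM per kb beside a median of 4.45 over all windows. No peak was called within 1 kb of any of its 6 annotated starts. The 4 peaks linked to it were low. The highest, inside the gene at chr5:17858042-17858373, held 9.58, 8.07 and 5.45 CPM in LacZ-shRNA and 4.46, 9.45 and 7.77 CPM in Yap-shRNA.

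Between the groups, none of the 10 windows passed the edgeR quasi-likelihood test at an adjusted p under 0.05, where 0.0223% of all windows did. None had an unadjusted p under 0.05 either, against 4.9% of all windows, and the likelihood-ratio test, DESeq2 and limma voom called none. Log2 fold changes, Yap-shRNA against LacZ-shRNA, were above 0 for 4 genes and below 0 for 6, with a median of -0.03 beside -0.01 over all windows. Without LacZ-shRNA replicate 1 the median was -0.17, and 2 of the windows, those of Slc27a1 and Pnpla2, had an unadjusted p under 0.05 but no adjusted one. The share of all windows with such an unadjusted p was not taken in that fit. Apart from Fabp3, the 95% intervals of the 9 other windows ran from -0.50 to 0.42 on the log2 scale, which is 0.708-fold to 1.34-fold, so that larger changes of these windows lie outside their intervals.

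**Figure D3:**
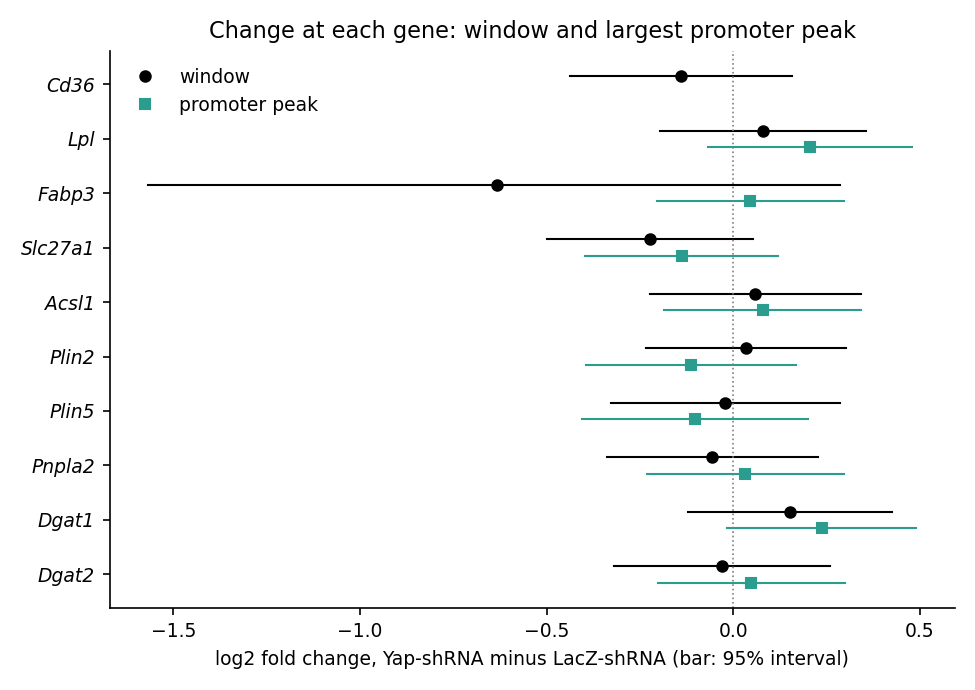
Log2 fold change, Yap-shRNA minus LacZ-shRNA, at the window (circles) and at the largest promoter peak (squares) of each gene, with 95% intervals. Cd36 has no promoter peak, and each interval drawn includes 0.

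Among the uptake genes, Slc27a1, a fatty acid transporter that also activates its cargo, was the 1 window whose groups did not overlap. It held 117, 119 and 147 CPM in LacZ-shRNA and 112, 104 and 114 CPM in Yap-shRNA. All 3 Yap-shRNA libraries were thus below all 3 LacZ-shRNA libraries, by a log2 fold change of -0.22 (SE 0.137, edgeR unadjusted p 0.112, adjusted p 0.946). The value rested in part on the highest LacZ-shRNA library, being -0.10 (unadjusted p 0.487) without replicate 3 and -0.30 (unadjusted p 0.00337) without replicate 1 in the same test. Groups were apart at 1 of 10 windows here and at 10.1% of all windows, 4.79% with Yap-shRNA below. In bulk nuclei, a lower signal per nucleus and fewer nuclei of one kind cannot be told apart.

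At the remaining uptake windows the groups overlapped. Lpl, the capillary lipase that frees fatty acids from lipoproteins, held 33.3, 31.7 and 37.5 CPM in LacZ-shRNA and 36.3, 38.0 and 35.0 CPM in Yap-shRNA, a log2 fold change of 0.08 (SE 0.137). Cd36 held 25.7, 22.7 and 28.4 CPM in LacZ-shRNA and 24.4, 24.3 and 21.9 CPM in Yap-shRNA, a log2 fold change of -0.14 (SE 0.147). Acsl1, an acyl-CoA synthetase, held 120, 149 and 155 CPM in LacZ-shRNA and 158, 137 and 146 CPM in Yap-shRNA, a log2 fold change of 0.06 (SE 0.139). None of these 3 log2 fold changes exceeded its SE. The Fabp3 window gave -0.63 with an SE of 0.458, whereas the peak over its start gave 0.05 (SE 0.124, 95% interval -0.21 to 0.30).

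The perilipins Plin2, which coats droplets in most cells, and Plin5, which ties droplets to mitochondria in oxidative muscle, overlapped between groups. Plin2 held 49.6, 45.5 and 51.7 CPM in LacZ-shRNA and 50.9, 52.2 and 47.9 CPM in Yap-shRNA, a log2 fold change of 0.03 (SE 0.132). Plin5 held 28.0, 39.1 and 42.6 CPM in LacZ-shRNA and 30.6, 36.2 and 41.8 CPM in Yap-shRNA, a log2 fold change of -0.02 (SE 0.152). The spread within each group at Plin5 was thus far wider than the distance between the group means.

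Lipolysis and synthesis were measured at Pnpla2 and at the 2 acyltransferases. Pnpla2 held 74.7, 97.4 and 108 CPM in LacZ-shRNA and 90.2, 86.0 and 93.2 CPM in Yap-shRNA, a log2 fold change of -0.06 (SE 0.139). Dgat1 held 94.4, 106 and 116 CPM in LacZ-shRNA and 118, 111 and 124 CPM in Yap-shRNA, the highest value of the 10 windows at 0.15 (SE 0.135, edgeR unadjusted p 0.269, adjusted p 0.951). Dgat2 held 57.5, 91.3 and 73.6 CPM in LacZ-shRNA and 71.6, 69.5 and 74.5 CPM in Yap-shRNA, a log2 fold change of -0.03 (SE 0.143). Replicate 1 was the lowest LacZ-shRNA library at these 3 genes, and without it Dgat1 gave 0.067.

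Accessibility was then followed beyond the starts. The deposited peak table held 59 peaks that overlap one of the genes or lie within 50 kb of one of its starts. Of these, 13 were promoter peaks within 1 kb of a start, 8 lay elsewhere in the gene and 38 outside it, and 33 were nearer to the start of another protein-coding gene. None of the 59 passed the test at an adjusted p under 0.05, where 0.618% of all 36097 peaks did, and the smallest adjusted p was 0.408. The groups were apart at 7 of the 59 peaks, 6 with Yap-shRNA above and 1 below, where 13.3% of all peaks were apart, 6.55% with Yap-shRNA above and 6.76% below. Their median log2 fold change was 0.03.

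A single linked peak had an unadjusted p under 0.05, which 8.9% of all peaks had, 5.31% with the lower signal in Yap-shRNA. It covers an internal annotated start of Slc27a1 (chr8:71578906-71580282) and held 39.2, 37.8 and 41.1 CPM in LacZ-shRNA and 32.4, 33.6 and 29.3 CPM in Yap-shRNA. Every Yap-shRNA library was below every LacZ-shRNA library, with a log2 fold change of -0.32 (SE 0.130, 95% interval -0.58 to -0.05, edgeR unadjusted p 0.0197, adjusted p 0.408). The count of such peaks rested on single libraries, being 7, 3 and 6 without LacZ-shRNA replicates 1, 2 and 3. The share of all peaks was not taken in those fits. The unadjusted p of the Slc27a1 peak was 0.0566 without LacZ-shRNA replicate 3 and 0.0649 without Yap-shRNA replicate 3.

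The same peak is shown at its one AP-1 match, which lies -266 bp from the internal start at position 71579213; 19.0% of peaks of like width hold the letters TGANTCA, and the peak holds no ACATTCC.
Slc27a1 internal peak, chr8:71578933-71578961: tagggagacccTGACTCAaaagtaagaag
The larger peak over the first starts of Slc27a1 (chr8:71568130-71570990), where the TEAD match shown above lies, held 98.8, 83.6 and 112 CPM in LacZ-shRNA and 93.7, 85.0 and 91.6 CPM in Yap-shRNA. Its log2 fold change of -0.14 (SE 0.128) was close to its SE, and the groups overlapped.

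The promoter peak of Dgat1 (chr15:76510539-76512955) was the one promoter peak at which all 3 Yap-shRNA libraries were above all 3 LacZ-shRNA libraries. It held 70.1, 60.3 and 80.1 CPM in LacZ-shRNA and 87.2, 81.9 and 82.4 CPM in Yap-shRNA. The difference of 0.24 on the log2 scale (SE 0.126, 95% interval -0.02 to 0.49) did not pass (edgeR unadjusted p 0.067, adjusted p 0.611). Leaving out LacZ-shRNA replicate 2, its lowest library, brought it to 0.15. The promoter peak of Lpl (chr8:68880299-68882100) held 38.9, 27.2 and 39.3 CPM in LacZ-shRNA and 38.9, 44.7 and 41.0 CPM in Yap-shRNA, a log2 fold change of 0.21 (SE 0.135).

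At the 5 remaining genes the largest promoter peak differed less. Acsl1 (chr8:46469889-46472021) gave a log2 fold change of 0.08, Dgat2 (chr7:99182147-99183658) of 0.05 and Pnpla2 (chr7:141454552-141457865) of 0.03. Both droplet coat genes were on the other side of 0, Plin5 (chr17:56117049-56117819) at -0.10 and Plin2 (chr4:86656970-86657955) at -0.11. The second Plin2 peak, over its first start, gave 0.22 (SE 0.145), so that the 2 Plin2 promoter peaks had opposite signs, and all 6 intervals include 0.

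**Figure D4:**
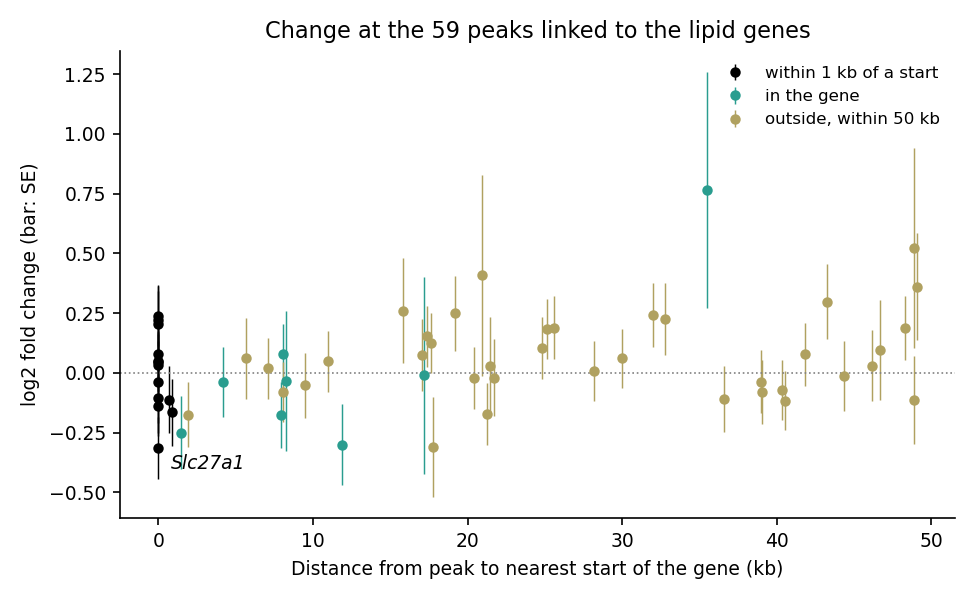
Log2 fold change (points, with SE bars) of the 59 linked peaks against the distance in kb from the peak to the nearest annotated start of its gene, coloured by class. The Slc27a1 peak at -0.32 is named, and the highest point, at 0.76, is a low Cd36 peak whose 95% interval runs from -0.22 to 1.77.

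Of the linked peaks outside promoters, the 3 with the smallest p had 95% intervals that include 0. A peak inside Lpl (chr8:68902648-68903516) held 18.3, 23.8 and 24.5 CPM in LacZ-shRNA and 17.1, 14.7 and 22.8 CPM in Yap-shRNA, a log2 fold change of -0.30 (SE 0.171). The sign is opposite to that of the Lpl promoter peak. A peak between Dgat2 and Mogat2 (chr7:99214702-99216278), nearer to the latter, held 29.3, 28.0 and 36.1 CPM in LacZ-shRNA and 38.4, 36.4 and 38.0 CPM in Yap-shRNA, with all 3 Yap-shRNA libraries above all 3 LacZ-shRNA libraries and a log2 fold change of 0.24 (SE 0.134). A peak linked to Fabp3 but nearer to Serinc2 (chr4:130264197-130265319) gave 0.30 (SE 0.157), with overlapping groups.

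The other genes of the same steps were taken from a list of 48, of which 45 had a window. Some of the 45 windows share bases with windows of other genes, as the Fabp3 window does. Mgll is the one among the genes named below, and the effect of the sharing on these values was not tested. None of the 45 passed at an adjusted p under 0.05 (0.0223% of all windows did) in edgeR, DESeq2 or limma voom, and 4 had an unadjusted p under 0.05, 1 higher and 3 lower, where 1.9% of all windows were higher and 3.01% lower. The median log2 fold change was 0.02. By role, 7 of 16 uptake genes, 4 of 9 droplet genes, 4 of 7 lipolysis genes and 9 of 13 synthesis genes had a log2 fold change above 0, which 47.3% of all windows had.

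**Figure D5:**
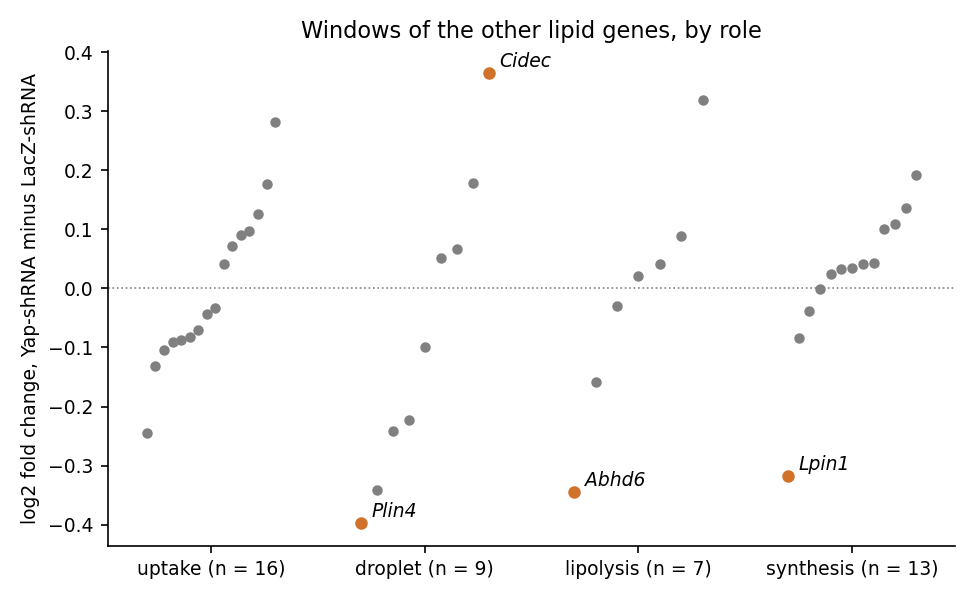
Log2 fold change, Yap-shRNA minus LacZ-shRNA, at the windows of 45 other lipid genes, grouped by role and ordered within each role. The 4 genes with an unadjusted p under 0.05 are in orange and named, Cidec above 0 and Plin4, Abhd6 and Lpin1 below.

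Plin4, a perilipin abundant in muscle and fat, held 124, 176 and 186 CPM in LacZ-shRNA and 130, 114 and 126 CPM in Yap-shRNA, a log2 fold change of -0.40 (SE 0.146, edgeR unadjusted p 0.00946, adjusted p 0.946). Lpin1, the phosphatidate phosphatase that makes diacylglycerol, held 87.2, 152 and 128 CPM in LacZ-shRNA and 90.6, 97.4 and 105 CPM in Yap-shRNA, a log2 fold change of -0.32 (SE 0.151). In both, LacZ-shRNA replicate 1 lay with or below the Yap-shRNA libraries and the other two LacZ-shRNA libraries above them. Without that replicate both passed, Plin4 at -0.56 (edgeR adjusted p 0.000139) and Lpin1 at -0.51 (adjusted p 0.00233), so that 1 library decides their call. In that fit 157 of all 49366 windows passed, against 11 in the reported fit. Lpin1 gave -0.15 without LacZ-shRNA replicate 2, and the unadjusted p of Plin4 was 0.0884 without LacZ-shRNA replicate 3.

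Abhd6, a monoacylglycerol lipase, held 17.5, 19.5 and 19.3 CPM in LacZ-shRNA and 14.1, 15.5 and 14.7 CPM in Yap-shRNA, with the groups apart and a log2 fold change of -0.35 (SE 0.161, edgeR unadjusted p 0.038, adjusted p 0.946). Cidec, a droplet fusion protein best known from adipocytes, held 13.0, 18.6 and 20.2 CPM in LacZ-shRNA and 21.5, 22.2 and 23.4 CPM in Yap-shRNA, with the groups apart in the other direction and a log2 fold change of 0.36 (SE 0.164). Without LacZ-shRNA replicate 1, its lowest library, Cidec gave 0.19 (edgeR unadjusted p 0.228). The 8 adipocyte markers, Cidec among them, summed to 168 to 184 CPM in LacZ-shRNA and 175 to 199 CPM in Yap-shRNA, and 5 of the 8 had a log2 fold change above 0. Cidec and Cfd (0.37) had an unadjusted p under 0.05 with the higher signal in Yap-shRNA, as 1.9% of all windows had, whereas Fabp4 (-0.25), Lep (-0.18) and Retn (-0.07) were below 0, and their part in the Cidec value was not tested. In the other marker lists, 2 of 10 muscle fibre, 5 of 8 endothelial, 3 of 6 fibroblast, 4 of 5 leukocyte and 0 of 3 satellite cell windows were above 0. Some of these also had an edgeR unadjusted p under 0.05. The fibroblast markers Col1a1 (0.39) and Col3a1 (0.34) and the leukocyte marker Csf1r (0.32) were higher in Yap-shRNA. The endothelial marker Kdr (-0.59) and the satellite cell marker Calcr (-0.37) were lower, as 3.01% of all windows were. No marker window passed at an adjusted p under 0.05. The other pathway windows at either end of their role were Acbd3 at 0.28, Mgll at 0.32, Agpat2 at 0.19 and Fabp4 at -0.25. None of these pathway windows had an edgeR unadjusted p under 0.05. Agpat2 gave 0.093 without LacZ-shRNA replicate 1.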

How the data were processed

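The authors mapped reads to GRCm38 with BWA 0.7.17, used SAMtools 1.8 to remove duplicates and MACS 1.4.2-1 to call peaks, merged peaks seen in at least 2 samples and ran featureCounts 1.5.0 for the read counts (versions from the submitters' processing notes). The deposited values are whole-number counts, not normalized, for 36097 peaks and 49366 windows, from which rows with a mean under 10 had been removed. Members, lists and tests were chosen with earlier results of these data known.

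Counts were compared across each whole table with edgeR 4.0.16 in R 4.3.3 (quasi-likelihood test, TMM factors, no covariate, Benjamini-Hochberg adjustment at 0.05), checked on simulated data. CPM are TMM-normalised. Gene positions and starts came from GENCODE vM21, and promoter and peak sequence from RefSeq GRCm38.p6. Genes named were the 10 members, the largest promoter peak of each, the 5 linked peaks with the smallest p, and other pathway genes with an unadjusted p under 0.05 or at either end of their role. Cidea, Fitm2 and G0s2 were not analysed here. The replicates are numbered in the labels, and p-values measure the spread between these pooled samples. Same-numbered windows deviated together with correlations of 0.191, -0.121 and 0.0923, so the numbers were not used as pairs. Alternatives were a likelihood-ratio test, DESeq2 1.42.0, limma 3.58.1 voom, other scalings, a loess offset on abundance, a mean count of at least 50, a replicate block and leaving out each sample.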

Additional observations from a re-analysis of the deposited data

How the results depend on the processing

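No member window and no linked peak passed an adjusted p under 0.05 in any of the alternatives run. Scaling by library size alone raised the median of all peaks by 0.139 on the log2 scale. Under it 11 linked peaks had an unadjusted p under 0.05, against 3 with the filter at a mean of 50 reads, 4 with the loess offset and 1 in the reported fit. Shares of all peaks and windows at that unadjusted p were taken in the reported fit alone. The counts under the alternatives therefore have no share beside them and are not read as a result about these genes. The loess offset gave 1 member window with an unadjusted p under 0.05. DESeq2 gave 2 pathway windows with an unadjusted p under 0.05, against 4. Library size alone turned the sign of the log2 fold change at the windows of Plin5 (0.041), Dgat2 (0.039) and Pnpla2 (0.0082) and at the promoter peaks of Plin5 (0.035), Plin2 (0.026) and Slc27a1 (0.0030), each of them smaller than the shift of its table (0.06 for windows). Levels as CPM without division by length left 3 of the 10 genes at their rank. With one sample left out, the count of member windows with an unadjusted p under 0.05 ran from 0 to 2, of linked peaks from 1 to 7 and of pathway windows from 1 to 9. The count of pathway windows past the adjusted threshold ran from 0 to 2. The highest of each was without LacZ-shRNA replicate 1, a fit in which 157 of all 49366 windows passed the adjusted threshold. The median member log2 fold change ran from -0.17 to 0.075. Signs also turned with one sample left out at the windows of Acsl1 (-0.051 to 0.13), Plin2 (-0.0080 to 0.077), Plin5 (-0.19 to 0.14), Pnpla2 (-0.20 to 0.072) and Dgat2 (-0.17 to 0.13). They did so too at the promoter peaks of Dgat2 (-0.037 to 0.10), Fabp3 (-0.019 to 0.15), Plin2 (-0.22 to 0.0068), Plin5 (-0.26 to 0.061) and Pnpla2 (-0.053 to 0.13). With the replicate number as a block, the median member log2 fold change was -0.01, 1 linked peak and 3 pathway windows had an unadjusted p under 0.05, and no call changed. Leaving out the Fabp3 window, chosen after seeing the data, gave a median of -0.02. Linking peaks within 10 kb of a start kept 1 peak with an unadjusted p under 0.05.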
